A study of Mus musculus with 8 samples.

Results

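The first 2 hours after 32Dcl3 cells went from IL-3 to G-CSF were described from 4 of the 8 arrays of the study. These mouse cells are an established line of myeloid progenitors, which depend on IL-3 for growth and mature toward neutrophils in G-CSF. The 4 arrays were chosen by their labels. They are 1 array of mock cells in IL-3, 1 of ASXL1-MT cells in IL-3, and 1 of each culture after 2 h in G-CSF. Mock cells carried the retroviral vector pMYs-IG, and ASXL1-MT cells carried pMYs-FLAG-ASXL1-MT-IG, which encodes a FLAG-tagged mutant of the chromatin regulator ASXL1. The other 4 arrays held the same cultures after 6 h and 24 h in G-CSF. They entered the statistical fit and are used here for the later course of the genes described. Both sides of the comparison share the cell line and the vector backbone. The labels do not say whether IL-3 was removed when G-CSF was added, whether the time points were separate cultures, or whether each line was 1 clone or a pool, and no array of cells kept in IL-3 for 2 h is among the 8. Loss of IL-3, gain of G-CSF and handling of the cells therefore cannot be told apart.

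IL-3 signals through the kinase JAK2 to the transcription factor STAT5, to the RAS and ERK kinase cascade, and through PI3 kinase and AKT, which keeps FOXO transcription factors out of the nucleus. STAT5 switches on Cish, Osm and other early genes, and active ERK switches on phosphatases and Sprouty proteins that feed back on the cascade. The G-CSF receptor also uses JAK kinases but signals mainly to STAT3, whose early targets include Socs3, Junb and Bcl3.

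The values are log2 signals of 45037 probe sets, each given relative to the median of its own probe set over the 8 arrays, so a value of 0 is a typical level for that probe set and levels of different genes cannot be compared. Each probe set's level before centring was estimated. A probe set was tested if at least 2 of the 8 arrays reached a minimum level, the median of the table, and 30769 did. The 13511 of these at or above the 70th percentile of the table, which stand for 7430 genes, are called bright, and the other 17258 dim. Of 15 markers of myeloid progenitors 11 were bright, among them Mpo, Elane, Prtn3 and Ctsg, which encode proteins of the primary granules. None of 20 lymphoid markers was bright, and neither were Kit and Cd34, whose probe sets lay under the minimum level. With 1 array per condition, the 2 cultures stand in as the replicates, and they show the spread between these 2 cultures only.

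Promoter sequences are shown for 5 genes described further on, because their stretches hold the motif of a factor on which these receptors act. Each stretch runs from 220 bases before to 30 bases after a RefSeq transcription start in GRCm38.p6, 5′ to 3′ on the strand of the gene. Capitals mark the STAT motif TTCNNNGAA in the first 4 and, in Bbc3, the FOXO motif GTAAACA read on the other strand.
Cish, chr9:107296439-107296688, plus strand: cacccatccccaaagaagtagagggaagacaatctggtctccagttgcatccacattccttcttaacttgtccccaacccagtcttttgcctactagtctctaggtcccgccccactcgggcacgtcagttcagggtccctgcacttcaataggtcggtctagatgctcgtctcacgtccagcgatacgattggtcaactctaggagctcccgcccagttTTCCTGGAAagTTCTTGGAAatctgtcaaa
Nfkbid, chr7:30421511-30421760, plus strand: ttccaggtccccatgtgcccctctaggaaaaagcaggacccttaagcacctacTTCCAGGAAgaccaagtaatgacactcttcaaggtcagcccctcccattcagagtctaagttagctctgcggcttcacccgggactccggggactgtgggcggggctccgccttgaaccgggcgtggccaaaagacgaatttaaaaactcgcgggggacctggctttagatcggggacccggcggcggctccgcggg
Arid5b, chr10:68278697-68278946, minus strand: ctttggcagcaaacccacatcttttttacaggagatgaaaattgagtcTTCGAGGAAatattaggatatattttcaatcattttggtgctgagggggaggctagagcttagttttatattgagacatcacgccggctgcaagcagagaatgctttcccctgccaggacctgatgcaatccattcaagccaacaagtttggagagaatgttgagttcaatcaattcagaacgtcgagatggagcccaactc
Icam1, chr9:21015720-21015969, plus strand: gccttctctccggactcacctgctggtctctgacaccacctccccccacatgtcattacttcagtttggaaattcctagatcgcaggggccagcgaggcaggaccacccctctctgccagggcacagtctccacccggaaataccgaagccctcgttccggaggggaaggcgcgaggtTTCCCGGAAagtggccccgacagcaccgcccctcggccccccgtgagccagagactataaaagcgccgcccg
Bbc3, chr7:16310041-16310290, plus strand: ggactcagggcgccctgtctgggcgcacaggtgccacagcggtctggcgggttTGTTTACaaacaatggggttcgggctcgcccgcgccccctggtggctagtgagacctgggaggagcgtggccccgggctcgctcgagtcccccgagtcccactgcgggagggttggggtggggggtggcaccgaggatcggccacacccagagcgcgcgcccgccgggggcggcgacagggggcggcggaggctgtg
Cish, a STAT5 target, holds 2 STAT motifs, which begin at bases 1 and 12 of the transcript. In the other printed stretches the motif begins 167 bases before the start in Nfkbid, 172 in Arid5b and 42 in Icam1, and the FOXO motif of Bbc3 begins 167 bases before it. Nfkbid and Bbc3 have 3 starts each in the table. Of the other Nfkbid promoters 1 holds a STAT motif, 139 bases before its start, and the other Bbc3 promoters hold no FOXO motif. The printed genes were picked for holding a motif, and other genes described further on lack it. Socs3 holds a STAT motif, 154 bases before its start, but is not printed. Its 2 h difference had opposite directions in the 2 cultures in the probe set that stands for it. No STAT motif was found in the promoters of Dusp6, Bcl2, Osbpl9, Stat3 and Mxd1, and no FOXO motif in that of Ccng2.

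After 2 h in G-CSF the genes that fell included known targets of STAT5 and ERK, and the genes that rose included a known FOXO target. In limma's additive fit of time point and vector, 15 probe sets passed a false discovery rate (FDR) of 0.05. Of the 30769 tested, 9 (0.0293%) fell and 6 (0.0195%) rose. They stand for 12 named genes and 2 probe sets without a gene symbol. Dusp6, Cish, Myc, Bhlhe40, Osm, Bcl2, Cd69 and Lrp12 fell, and Ccng2, Osbpl9, Arid5b and Upk1b rose. All 15 differences had the same direction in both cultures. The fit has 3 residual degrees of freedom, and an unadjusted p under 0.05 was reached by 2693 probe sets. Each array centred on its median gave 3 higher and 9 lower probe sets, and a second quantile normalization gave 12 of each. No probe set passed in limma's fit of the 4 arrays alone (2423 at an unadjusted p under 0.05), without the trend of variance on level (2412), or without any single array: 2179 without mock in IL-3, 2727 without mock at 2 h, 2010 without ASXL1-MT in IL-3 and 2317 without ASXL1-MT at 2 h.

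The agreement of the 2 cultures does not rest on the fit, since their differences share no array. Of the bright probe sets, 16 (0.118%) were at least 1 log2 unit lower and 11 (0.0814%) at least 1 higher in both cultures, against 8 that were past this size in opposite directions. At a size of 0.58 log2 units, 56 were lower and 67 higher in both, and 22 went in opposite directions. Across the 13511 bright probe sets, which are not independent of each other, the 2 differences had a Pearson r of 0.31 and a Spearman rho of 0.25. The dim probe sets showed no such agreement. In both cultures 389 of the 17258 (2.25%) were at least 1 lower and 495 (2.87%) at least 1 higher, but 863 were past 1 in opposite directions, and r was 0.01. The minimum level was needed in only 2 arrays, so a dim probe set could be tested through the arrays where it was high. The median absolute difference between 2 h and IL-3 was 0.13 in bright and 0.47 in dim probe sets in each culture. The genes described are therefore mainly bright ones.

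**Figure D1:**
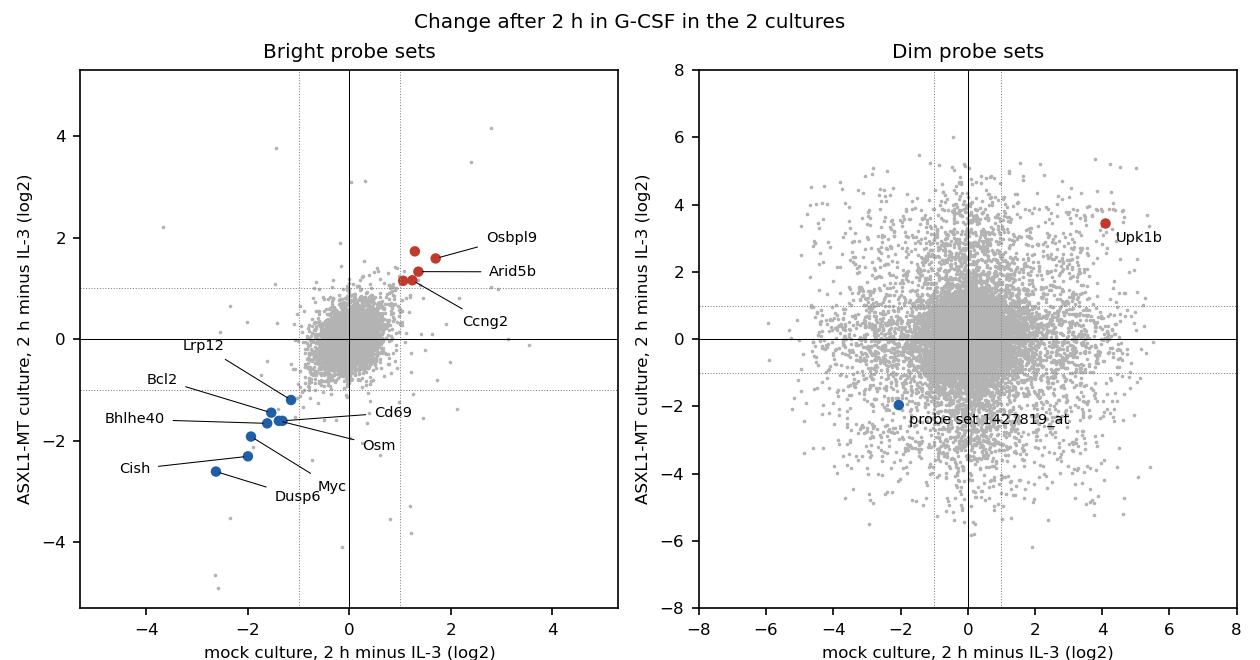
Difference between 2 h in G-CSF and IL-3 in the mock culture (x axis) and in the ASXL1-MT culture (y axis), in log2 units, for bright probe sets on the left and dim ones on the right, with different axis ranges. Each grey point is 1 probe set, coloured points passed the FDR (red higher, blue lower), dotted lines mark 1 log2 unit, and of the bright probe sets past 1 in both cultures 27 lie in the corners where the cultures agree in direction and 8 in the others.

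Of 23 tested targets of STAT5 and IL-3, 4 fell and passed the FDR in the probe sets that stand for them. Over all 13538 tested genes 7 did. Bcl2, also in this list, passed in another probe set. Cish, a feedback inhibitor that binds cytokine receptors, measured 2.00 in mock and 2.08 in ASXL1-MT cells in IL-3, and 0.00 and -0.23 at 2 h. It fell by 2.15 ± 0.14, or 4.44-fold (adjusted p = 0.0306, limma). Here and below ± gives the SE of limma's fit to all 8 arrays, not the spread of the 2 cultures' differences. Osm, which encodes the cytokine oncostatin M, measured 0.98 and 1.19 in IL-3 and -0.41 in each culture at 2 h. For both genes the 2 arrays in IL-3 lay far above the 2 arrays at 2 h. Osm fell by 1.5 ± 0.09 (adjusted p = 0.0232, limma). Cd69, an early activation antigen of the cell surface, measured 0.73 and 0.46 in IL-3 and -0.59 and -1.15 at 2 h, a fall of 1.47 ± 0.11 (adjusted p = 0.0401, limma). Cd69 missed the FDR with the vector left out of the model (adjusted p = 0.19, limma). Myc, the growth-driving transcription factor, measured 0.69 and 0.85 in IL-3 and -1.25 and -1.07 at 2 h. It fell by 1.93 ± 0.07, or 3.81-fold (adjusted p = 0.0056, limma), and was the third most reduced bright gene among those that passed.

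The other STAT5 targets differed by less in the probe sets that stand for them, and none of these passed the FDR in limma. The members of the STAT5 list and of the other gene lists were chosen with earlier results of these data known. Shares of the lists are therefore descriptions and no test of them. Of the 24 genes in the list, 23 were tested and 17 were bright. Of these 17, 11 were lower in both cultures, 2 higher in both and 4 differed in direction. The unadjusted p was under 0.05 for 8 of the 23 in the lower and 2 in the higher direction, against 5.39% and 4.56% of all 13538 genes tested. The bright members had a median difference of -0.20, against -0.01 over all bright genes. Id1, an inhibitor of differentiation, was lower by 1.08 in mock and 1.54 in ASXL1-MT cells and missed the FDR (adjusted p = 0.0715, limma). Differences were small for Pim1 (-0.05 in mock, -0.35 in ASXL1-MT), Socs2 (-0.07 and -0.32), Mcl1 (0.13 and -0.03) and Ccnd2 (-0.02 and -0.08), which encode a survival kinase, a feedback inhibitor, a survival protein and a G1 cyclin. Pim2, a second survival kinase, was higher by 0.54 and 0.69 (adjusted p = 0.159, limma). Bcl2l1, whose product BCL-XL protects from cell death, was lower by 0.32 and 0.48 (adjusted p = 0.447, limma). Bcl2, also in this list, was lower by 0.61 and 0.50 in the probe set that stands for it (adjusted p = 0.454, limma), and another of its probe sets passed, as described with the other genes that fell.

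Of the genes that ERK switches on, Dusp6 had the lowest difference of any gene that passed the FDR. Dusp6 encodes a phosphatase that inactivates ERK. It measured 1.33 and 1.41 in IL-3 and -1.3 and -1.20 at 2 h, and fell by 2.62 ± 0.09, or 6.15-fold (adjusted p = 0.0056, limma). The 2 cultures lay close to each other at either time. Several other members of the list were lower in both cultures without passing the FDR in limma. Ier3, an ERK-induced stress gene, was lower by 0.98 and 1.13 (adjusted p = 0.0715). Phlda1, an ERK-induced gene with a pleckstrin homology domain, was lower by 1.57 and 1.46 (adjusted p = 0.176), and Dusp4, a nuclear phosphatase, by 0.92 and 1.34 (adjusted p = 0.193). Of the 13 bright members of the list 11 were lower in both cultures, 1 was higher in both and 1 differed in direction, and their median was -0.34. Over all bright genes 2305 were lower in both, 2018 higher in both and 3106 differed in direction. The unadjusted p was under 0.05 for 10 of the 27 tested in the lower direction and 1 in the higher, Dusp16. The shares of all tested genes were 5.39% and 4.56%.

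The feedback genes had unlike courses. Etv5, an ETS factor that ERK induces, measured 1.33 and 1.36 in IL-3 and still 0.95 and 1.02 at 2 h, so that it was lower by 0.38 and 0.33 (adjusted p = 0.687, limma). By 6 h it was 3.06 lower in mock and 2.31 lower in ASXL1-MT cells than in IL-3, and by 24 h 3.58 and 3.52 lower. Spred1, an inhibitor of RAS signalling, was lower by 0.07 and 0.56 at 2 h and by 2.15 and 2.08 at 6 h. Spry2, of the Sprouty family, was lower by 0.31 and 0.37 at 2 h, while its second bright probe set differed by 0.57 and -0.28. Dusp6 ran the other way in time: it was 2.63 and 2.61 lower at 2 h, 1.83 and 1.78 lower at 6 h, and 0.84 and 1.04 lower at 24 h. These later differences share the IL-3 arrays with the 2 h difference.

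Bhlhe40, Lrp12 and Bcl2 were the other named genes that fell. Bhlhe40 encodes a basic helix-loop-helix repressor. It measured 1.09 and 1.03 in IL-3 and -0.53 and -0.63 at 2 h, a fall of 1.64 ± 0.06 (adjusted p = 0.0056, limma), and was 2.01 and 2.05 lower at 6 h. Lrp12, a receptor of the low density lipoprotein receptor family, measured 1.20 and 1.15 in IL-3 and 0.05 and -0.05 at 2 h, a fall of 1.18 ± 0.07 (adjusted p = 0.0232, limma). Bcl2, the founding survival gene of its family, fell in 1 of 5 probe sets, from 0.66 and 0.79 to -0.88 and -0.66, by 1.5 ± 0.08 (adjusted p = 0.0167, limma). The other 4 Bcl2 probe sets were lower by 0.24 to 1.35 and did not pass. This probe set is not the one that stands for Bcl2 in the lists and is named because it passed. Runx1, a core factor of blood cell formation, was lower in both cultures by 0.66 and 0.63 (adjusted p = 0.0802, limma), and its other 2 bright probe sets were lower by 0.34 and 0.68. Kcnk5, a potassium channel, was lower by 1.41 and 1.37 (adjusted p = 0.13, limma) and Vegfa, a blood vessel growth factor, by 0.72 and 0.71 (adjusted p = 0.0935, limma). Nfkbid, a nuclear partner of NF-kB whose promoter is printed above, was lower by 0.79 and 0.77 (adjusted p = 0.19, limma).

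**Figure D2:**
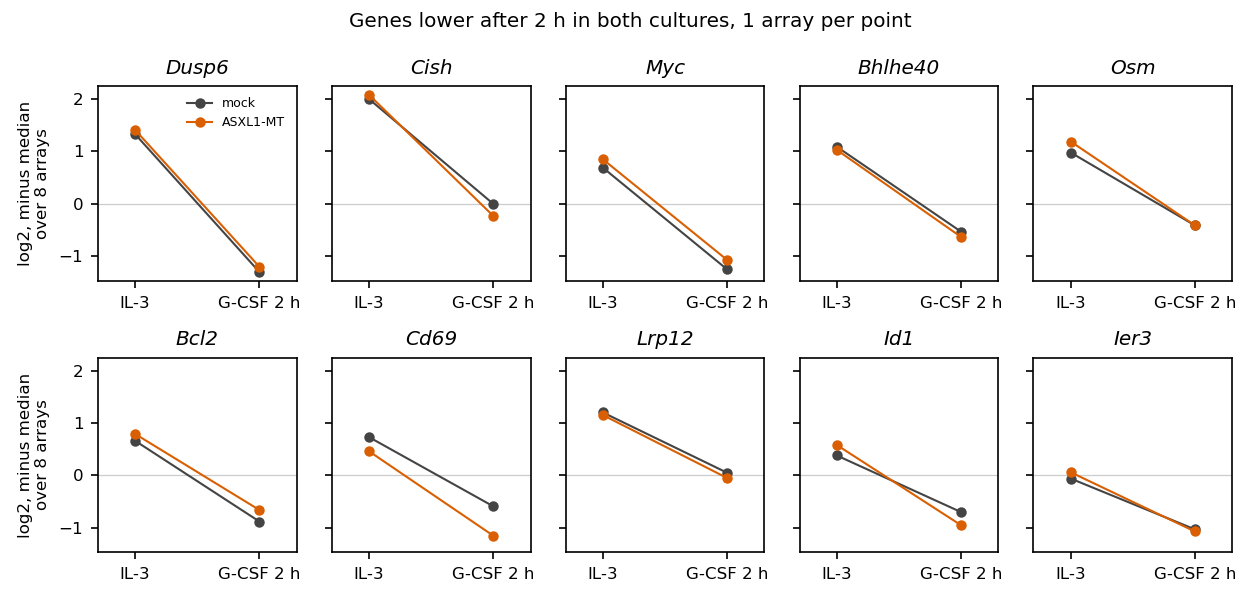
Values of 10 genes lower after 2 h, in log2 units relative to the median of the probe set over the 8 arrays, in IL-3 and after 2 h in G-CSF, 1 array per point, mock in grey and ASXL1-MT in orange. In every panel both points at 2 h lie below both points in IL-3, and the lines of the 2 cultures run close together; Id1 and Ier3 did not pass the FDR, and Bcl2 is shown by the probe set that did.

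MYC drives genes of ribosome assembly, and these lay near their level in IL-3 at 2 h. All 49 genes of ribosome biogenesis on the array were bright. Their median difference at 2 h was -0.04 (0.04 after a second quantile normalization), and 21 were lower in both cultures, 12 higher in both and 16 differed in direction. Over all bright genes 2305 were lower in both, 2018 higher in both and 3106 differed in direction. None of the 49 passed the FDR in limma, with an unadjusted p under 0.05 for 5 in the lower and 0 in the higher direction. The shares of all tested genes were 5.39% and 4.56%. At 6 h the median of the same 49 genes was -1.14 and at 24 h -1.08. Gnl3, which encodes the nucleolar protein nucleostemin, was lower by 0.28 and 0.43 at 2 h and by 2.03 and 1.78 at 6 h. Nop2, an RNA methyltransferase of the nucleolus, was lower by 0.20 and 0.27 at 2 h and by 1.77 and 1.61 at 6 h. Nop56, a core protein of box C/D small nucleolar particles, was lower by 0.21 and 0.33, then by 1.5 and 1.40. Wdr75 was lower by 0.93 and 1.05 at 2 h in 1 probe set (adjusted p = 0.0935, limma), while its second bright probe set differed by -0.25 and 0.31.

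A similar course was measured in other genes of growth and metabolism. Srm, the spermidine synthase gene, measured 0.97 and 1.09 in IL-3 and 0.89 and 0.84 at 2 h, and was then 2.71 and 2.64 lower at 6 h. Odc1, which encodes the first enzyme of polyamine synthesis, differed by -0.01 in mock and -0.87 in ASXL1-MT cells at 2 h in the probe set that stands for it. Its 2 other bright probe sets were not lower in ASXL1-MT cells, at 0.11 and 0.39 and at 0.14 and 0.01 in mock and ASXL1-MT. Ccnd2 was 1.33 and 1.52 lower at 6 h. The 19 bright genes of cholesterol synthesis had a median of -0.10 at 2 h and -0.93 at 6 h, with Lss, the lanosterol synthase gene, lower by 0.10 and 0.19 and then by 1.46 and 1.32. Among partners of MYC, Mxd1, which competes with MYC for MAX, was higher by 0.46 and 0.62 at 2 h (adjusted p = 0.351, limma), by 2.14 and 2.28 at 6 h and by 3.54 and 3.39 at 24 h. Its 2 other tested probe sets, both dim, went in opposite directions in the 2 cultures at 2 h (2.14 and -0.59, 0.39 and -0.87). Max was lower by 0.43 and 0.55 (adjusted p = 0.601, limma).

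**Figure D3:**
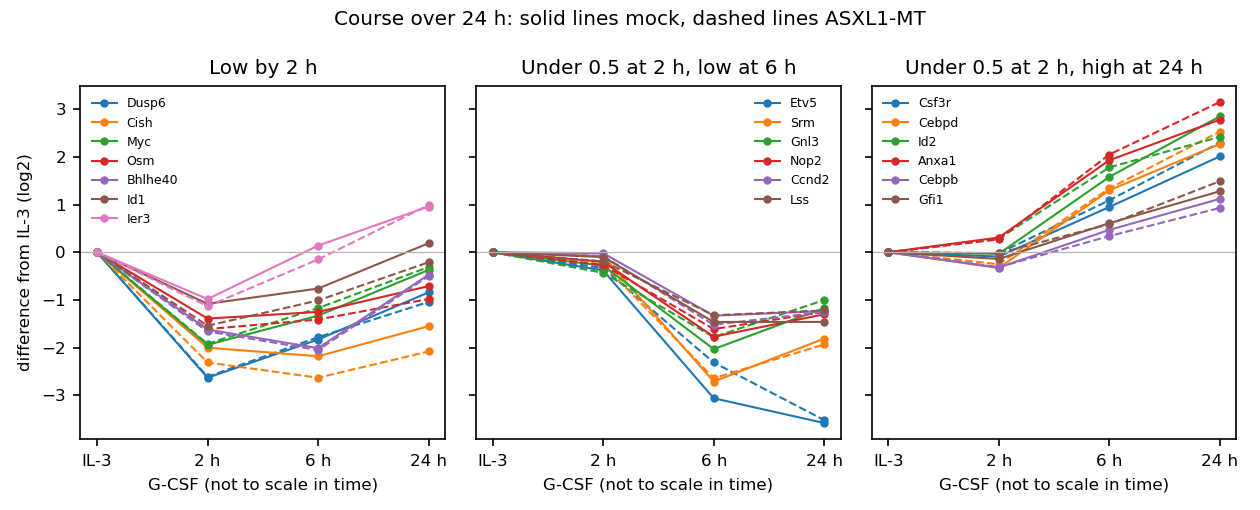
Difference from the IL-3 array of the same culture, in log2 units, at 2, 6 and 24 h in G-CSF for genes grouped after their values were seen, solid lines for mock and dashed lines for ASXL1-MT, with equal spacing of times on the x axis. Dusp6, Cish and Myc are lowest or nearly lowest by 2 h. In the middle panel Etv5, Ccnd2 and the ribosome and metabolic genes are lowest by 6 h or 24 h. The granulocyte genes on the right lie near 0 at 2 h.

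Among the genes that rose was 1 that is known to be switched on by FOXO factors when growth factor signalling drops. This was Ccng2, an atypical cyclin linked to growth arrest. It measured -1.73 in mock and -2.0 in ASXL1-MT cells in IL-3, and -0.44 and -0.27 at 2 h. It rose by 1.51 ± 0.12, or 2.85-fold (adjusted p = 0.049, limma), and its second probe set rose by 1.20 ± 0.07 (adjusted p = 0.0232, limma). The first missed the FDR once the array medians were set equal (adjusted p = 0.0612, limma). The 2 cultures stayed close, and both went on to be 2.67 and 2.89 higher than in IL-3 at 6 h. Klhl24, a FOXO target that encodes a ubiquitin ligase adaptor, measured -1.59 and -1.89 in IL-3 and -0.70 and -0.46 at 2 h. Its 5 probe sets were all higher in both cultures, by 0.64 to 1.98 in the fit, and none passed (adjusted p = 0.094 for the one that stands for the gene, limma). Cdkn1b, which encodes the CDK inhibitor p27, was higher by 0.80 and 0.68 (adjusted p = 0.291, limma).

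Across the FOXO list, whose members were also chosen with earlier results of these data known, 28 of 33 genes were tested and 20 were bright. Of these 20, 14 were higher in both cultures, 3 lower in both and 3 differed in direction, with a median of 0.20, against 2018, 2305 and 3106 of all bright genes. The unadjusted p was under 0.05 for 9 of the 28 in the higher and 4 in the lower direction, against 4.56% and 5.39% of all genes tested. The members with such a p in the lower direction were Txnip, an inhibitor of thioredoxin (-0.75 in mock, -0.85 in ASXL1-MT), Cited2, a transcriptional coactivator (-0.44 and -0.80), and the FOXO genes Foxo3 (-0.36 and -0.25) and Foxo1, which was dim (-0.81 and -1.63). S1pr1, a sphingosine receptor, was dim and lower by 1.87 and 3.32 (adjusted p = 0.643, limma). These 5 were picked out after their values were seen. The bright members had a median of 0.79 at 6 h and 0.84 at 24 h.

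Of 17 tested genes of the BCL2 family, 3 that promote cell death had an unadjusted p under 0.05 in the higher direction. Over all tested genes 4.56% had such a p in the higher and 5.39% in the lower direction. Bbc3, which encodes the killer protein PUMA, measured -0.89 and -1.22 in IL-3 and 0.19 and 0.13 at 2 h, a difference of 1.21 ± 0.11 that missed the FDR (adjusted p = 0.0715, limma). Bbc3 is also in the list of p53 targets and is not in the FOXO list. Bmf was higher by 0.96 and 0.65 (adjusted p = 0.388, limma), and Bcl2l11, which encodes BIM, by 0.50 and 0.29 (adjusted p = 0.321, limma) and by 0.14 and 0.15 in its second bright probe set. The 2 members with an unadjusted p under 0.05 in the lower direction were the survival genes Bcl2 and Bcl2l1. Of the 15 bright members 4 were higher in both cultures, 6 lower in both and 5 differed in direction. Over all bright genes these counts were 2018, 2305 and 3106. The 15 had a median of 0.04 over both cultures, -0.02 in mock and -0.08 in ASXL1-MT cells.

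Among 18 bright genes of the G1 phase, 2 inhibitors and 1 E2F factor were higher in both cultures by more than 0.58. Of all 7430 bright genes 34 were at least 0.58 higher in both. Cdkn1b is given above. Cdkn2d, the p19 INK4d gene, was higher by 0.69 and 0.61 (adjusted p = 0.0802, limma). E2f2, a transcription factor of the G1 to S transition, measured -1.14 and -1.33 in IL-3 and 0.05 and -0.50 at 2 h (adjusted p = 0.0802, limma). Of the 20 tested genes in this list 4 had an unadjusted p under 0.05, all in the higher direction, and the median of the 18 bright ones was -0.03. Over all tested genes 4.56% had such a p in the higher and 5.39% in the lower direction. Differences in genes of the G2 and M phases were small. Of 32 bright ones, 21 were higher in both cultures, 3 lower in both and 8 differed in direction, with a median of 0.14. Over all bright genes these counts were 2018, 2305 and 3106. The unadjusted p was under 0.05 for 7 of the 32 in the higher direction, against 4.56% of all tested genes. In the lower direction it was reached by 1, Nuf2 (-0.32 in mock, -0.80 in ASXL1-MT), against 5.39%. Cenpa, the centromeric histone, was higher by 1.18 and 0.54 (adjusted p = 0.291, limma), and Hmmr, a spindle protein, by 0.63 and 0.72 (adjusted p = 0.31, limma). These are the probe sets that stand for the genes. The second bright probe set of Cenpa was higher by 0.17 in each culture, and the 4 other bright ones of Hmmr by 0.18 to 0.31 in the fit.

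The other named genes that rose belong to none of the lists. Osbpl9, an oxysterol-binding protein, measured -2.11 and -1.83 in IL-3 and -0.42 and -0.25 at 2 h in 1 probe set, which rose by 1.64 ± 0.12, or 3.12-fold (adjusted p = 0.0401, limma). Its other tested probe sets differed by 0.22, 0.32 and -0.16, and with the mean of its probe sets the gene missed the FDR (0.82, adjusted p = 0.134, limma). Arid5b, a DNA-binding partner of a histone demethylase, measured -0.48 in each culture in IL-3 and 0.88 and 0.86 at 2 h, a rise of 1.35 ± 0.09 (adjusted p = 0.0319, limma). The 4 other Arid5b probe sets were dim and differed by 0.11 to 1.00 without passing, and the mean of the 5 missed the FDR (0.84, adjusted p = 0.402, limma). The rise of Arid5b was short: it was 1.03 and 0.77 above IL-3 at 6 h and 0.18 and 0.01 at 24 h. Upk1b, a membrane protein of the urothelium, is named because it passed (3.77 ± 0.27, adjusted p = 0.0401, limma), but its probe set was dim. It was 4.1 and 3.44 above IL-3 at 2 h, 1.72 and 1.19 at 6 h, and 4.26 and 3.66 at 24 h. Upk1b missed the FDR with robust variances (adjusted p = 0.0704, limma) and when all its probe sets were averaged (1.71, adjusted p = 0.389, limma). Casp4, an inflammatory caspase, was higher by 0.90 and 0.97 (adjusted p = 0.0802, limma) and Fut8, a fucosyltransferase, by 0.92 and 1.01 in 1 probe set (adjusted p = 0.0647, limma), while the second bright probe set of Fut8 differed by -0.05 and -0.03.

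**Figure D4:**
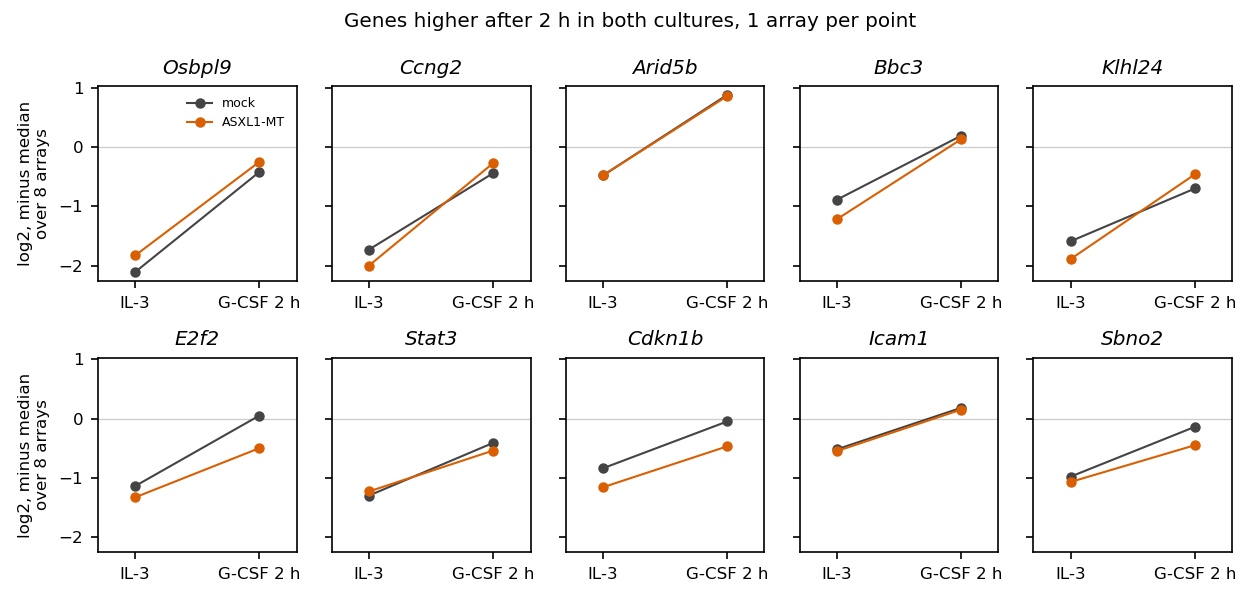
Values of 10 genes higher after 2 h, in log2 units relative to the median of the probe set over the 8 arrays, in IL-3 and after 2 h in G-CSF, 1 array per point, mock in grey and ASXL1-MT in orange. In every panel both points at 2 h lie above both points in IL-3; Osbpl9, Ccng2 and Arid5b passed the FDR and the other 7 genes did not.

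Of the known targets of G-CSF, Stat3 had the smallest p. Its own product, STAT3, induces it. Stat3 measured -1.3 and -1.23 in IL-3 and -0.41 and -0.54 at 2 h, a difference of 0.79 ± 0.08 (adjusted p = 0.075, limma). Its second bright probe set was higher by 0.82 and 0.93 (adjusted p = 0.0715, limma), and neither passed. Icam1, an adhesion molecule whose promoter is printed above, measured -0.52 and -0.55 in IL-3 and 0.18 and 0.15 at 2 h (adjusted p = 0.094, limma). Sbno2, a STAT3 target in macrophages, was higher by 0.84 and 0.62 (adjusted p = 0.167, limma), and Irf1, an interferon regulatory factor, by 0.44 and 0.59 (adjusted p = 0.176, limma). Both arrays at 2 h lay above both arrays in IL-3 for each of these 4 genes. Bcl3, a nuclear partner of NF-kB, was dim and higher by 0.62 and 0.35 at 2 h, then by 2.49 and 2.20 at 6 h.

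Of 29 tested genes in the STAT3 and G-CSF list none passed the FDR in limma. The unadjusted p was under 0.05 for 10 in the higher and 2 in the lower direction, against 4.56% and 5.39% of all 13538 genes tested. Among 20 bright members 12 were higher in both cultures, 5 lower in both and 3 differed in direction. Over all bright genes these counts were 2018, 2305 and 3106. The bright members of the list had a median of 0.19 at 2 h, 0.88 at 6 h and 1.62 at 24 h. Socs3, the main feedback inhibitor of the G-CSF receptor, was higher by 0.51 in mock and lower by 0.51 in ASXL1-MT cells in the probe set that stands for it. The 2 other Socs3 probe sets were higher in both cultures, by 0.19 and 0.28 and by 0.26 and 0.19. At 6 h the first was 1.73 and 0.66 above IL-3. Junb was higher by 0.35 and 0.30 (adjusted p = 0.392, limma).

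The receptor for G-CSF and the factors of granulocyte maturation showed no higher level at 2 h. Csf3r differed by -0.09 and -0.02 at 2 h and was then 0.95 and 1.09 higher at 6 h and 2.01 and 2.30 higher at 24 h. Cebpb and Cebpd, which encode C/EBP factors of the myeloid lineage, were lower at 2 h by 0.32 and 0.31 and by 0.33 and 0.25 (adjusted p = 0.388 and 0.454, limma). At 6 h Cebpd was 1.3 and 1.34 higher. Gfi1, a repressor needed for neutrophil formation, differed by -0.14 and -0.02, Gfi1b, its erythroid relative, by -0.11 and 0.14, and Id2 by -0.03 and 0.29. Of 30 bright myeloid and erythroid transcription factors, 18 were lower in both cultures, 3 higher in both and 9 differed in direction, with a median of -0.15. Over all bright genes these counts were 2305, 2018 and 3106. An unadjusted p under 0.05 was reached in the lower direction by 10 of the 39 factors tested. In the higher direction it was reached by 2, Irf1 and Stat3, also in the G-CSF list. The shares of all tested genes were 5.39% and 4.56%.

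Granule genes lay near their level in IL-3. The median of 25 bright neutrophil granule genes was 0.04 at 2 h, 0.40 at 6 h and 1.35 at 24 h. Lcn2, the lipocalin of secondary granules, was higher by 0.19 and 0.68 at 2 h (adjusted p = 0.472, limma) and by 4.2 and 4.46 at 24 h. Ncf1, a subunit of the phagocyte oxidase, was lower by 0.50 and 0.28 at 2 h (adjusted p = 0.35, limma) and 1.5 higher in each culture at 24 h. Anxa1 was higher by 0.31 and 0.27 at 2 h and by 1.93 and 2.05 at 6 h. Among cytokine receptors Il17ra was higher by 0.56 and 0.62 (adjusted p = 0.167, limma). Of 16 bright receptors 11 were higher in both cultures, 2 lower in both and 3 differed in direction, with a median of 0.16. Over all bright genes these counts were 2018, 2305 and 3106.

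Immediate early genes split. Fos measured -1.01 and -1.51 in IL-3 and -0.56 and -0.73 at 2 h (adjusted p = 0.294, limma), and was 2.22 and 2.07 above IL-3 at 6 h. Ier3, also in the ERK list, was lower. Egr1, which ERK induces within minutes, was dim and lower by 0.62 and 0.44 (adjusted p = 0.712, limma). Of 28 tested, 7 had an unadjusted p under 0.05 in the higher and 4 in the lower direction, and the median of the 16 bright ones was 0.19. The shares of all tested genes with such a p were 4.56% and 5.39%.

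**Figure D5:**
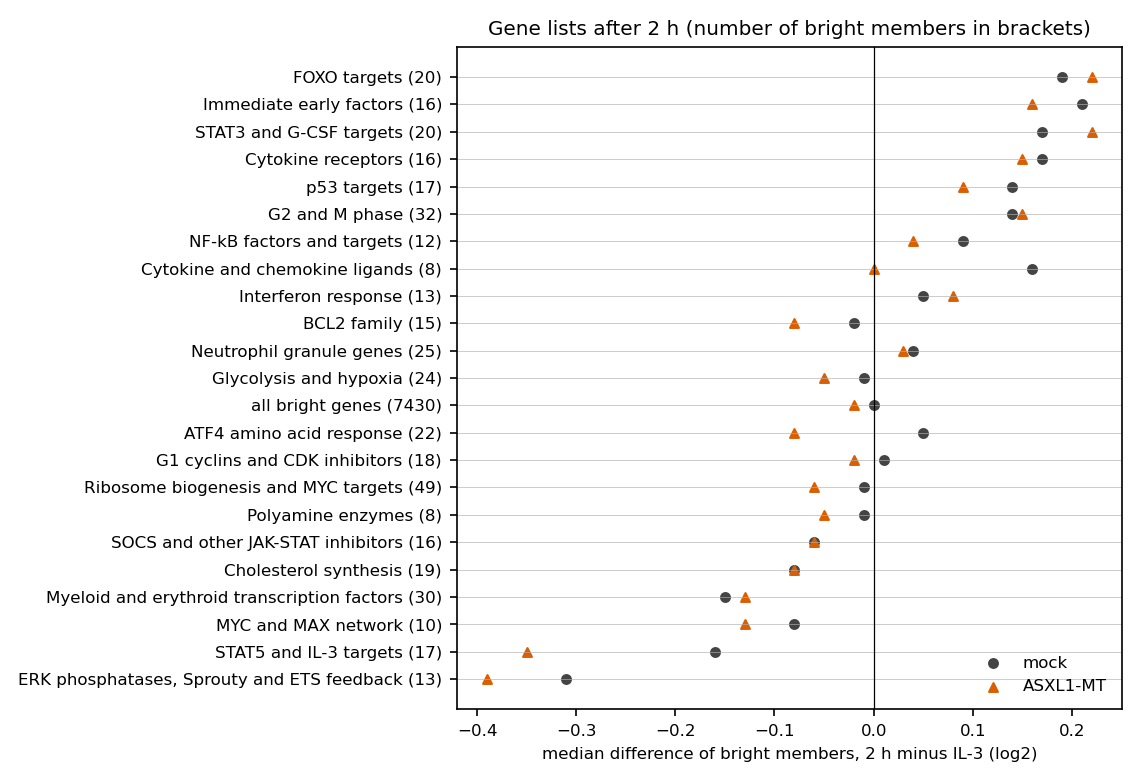
Median difference between 2 h in G-CSF and IL-3 over the bright members of each gene list, in log2 units, grey circles for mock and orange triangles for ASXL1-MT, with all bright genes for reference. List members were chosen with earlier results of these data known. Medians of the mean over both cultures, which are not plotted, are lowest in the ERK list (-0.34) and the STAT5 list (-0.20). They are highest in the FOXO (0.20), immediate early (0.19) and STAT3 (0.19) lists. By that measure the other lists lie between -0.18 (MYC and MAX network) and 0.16 (cytokine receptors). The MYC and MAX network is plotted at -0.08 in mock and -0.13 in ASXL1-MT.

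STAT motifs were found in promoters of genes in both directions. The search took 300 bases per promoter, 250 before and 50 after the start, on both strands. The STAT motif TTCNNNGAA was in 6 of 34 promoters (17.6%) of bright genes at least 0.58 lower in both cultures, held by Cish, Nfkbid, Alas1, Fam78a and Usp17la. It was in 7 of 43 promoters (16.3%) of genes at least 0.58 higher in both, held by Arid5b, Icam1, Sbno2, Crebrf, Pnrc1 and Tsc22d3, and in 6.44% of 7828 promoters of all bright genes. Among all tested genes at least 1 lower or higher in both cultures the share was 12.5% of 160 and 8.37% of 227, against 7.07% of 13855. The FOXO motif GTAAACA was in 3 of the 43 higher promoters (6.98%), those of Bbc3 and Casp4, in 1 of the 34 lower ones (2.94%), that of Txnip, and in 2.61% of all bright promoters. The E-box CACGTG, which MYC binds, was in 11.8% of the lower, 4.65% of the higher and 10.8% of all bright promoters. Shares for the cAMP response element TGACGTCA were 5.88%, 2.33% and 3.31%, and for the AP-1 motif TGANTCA 0%, 2.33% and 4.52%. The NF-kB motif was in 20.6%, 16.3% and 10.1%, and the CArG box in 0%, 2.33% and 1.19%. These are descriptions of short windows, some of the motifs can overlap each other, and several genes have more than 1 window. Entries were found for 23 of the 33 lower and 28 of the 34 higher genes.

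Dim probe sets held the numerically largest differences, and few of these passed the FDR. Of the dim genes with the largest difference in both cultures, 5 in each direction, none passed in limma; Upk1b, which is not among these 10, did. Boll, a germ cell gene, measured -0.16 and 0.03 in IL-3 and -3.47 and -3.44 at 2 h (adjusted p = 0.0647, limma), and was back at 0.13 and 0.24 above IL-3 at 6 h. Uchl4 measured -1.90 in each culture in IL-3 and 3.11 and 3.20 at 2 h (adjusted p = 0.389, limma), with an SE of 1.31. Pate14 was higher by 3.95 and 3.86 at 2 h, 4.51 and 4.43 at 6 h and 4.68 and 3.78 at 24 h (adjusted p = 0.0715, limma). Maf and Fabp4 were at -3.65 and -4.74 and at 4.33 and 4.05 (adjusted p = 0.155 and 0.321, limma). Adad1, Cldn4, 4933416M06Rik, Naaladl2 and 1810010K12Rik made up the rest, with adjusted p-values of 0.159 to 0.529. Of these 10, Uchl4, Fabp4, Naaladl2 and 1810010K12Rik, which were higher, had a mean level under the minimum of 5.85. So had Maf, Adad1, Cldn4 and 4933416M06Rik, which were lower. Such genes were tested through the arrays where they were high. The rule for naming bright genes also took Tmem30c, which was lower, and Cog1, Klk1b11, Opn1mw and A230006K03Rik, which were higher, by at least 0.98 in each culture, with adjusted p-values of 0.217 to 0.687. The 2 other bright Cog1 probe sets differed by 0.04 and 0.08 in the fit, with opposite directions in the cultures, and the other tested A230006K03Rik probe set, a dim one, was lower, at -1.18 and -0.81. Some bright genes had similarly large and uneven differences: Faxc was lower by 2.58 and 4.91 (adjusted p = 0.347, limma) and Chit1 higher by 2.40 and 3.49 (adjusted p = 0.442, limma).

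The 2 h change itself was not found to differ between the cultures. A term for this difference added to limma's fit called 0 of 30769 probe sets, with 1701 at an unadjusted p under 0.05 and a smallest adjusted p of 0.846. That fit has 1 residual degree of freedom, so it could detect little. For the 8 genes that fell, the ASXL1-MT difference minus the mock difference lay between -0.31 (Cish) and 0.09 (Bcl2), and for the 4 genes that rose it was 0.44 and -0.09 in the 2 Ccng2 probe sets, -0.11 in Osbpl9, -0.02 in Arid5b and -0.66 in Upk1b.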

How the data were processed

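RNA of 8 samples was hybridized to Affymetrix mouse 430 arrays, 1 per condition. MAS 5.0 captured the signals, per the labels, and RMA is named in the submitters' processing notes. The deposited values are log2 signals minus the median of each probe set over the 8 arrays (within 5e-07 of 0). Their base is not given in the sources used here, and a natural log is possible, and fold changes would then be larger. The table lists 45037 probe sets, more than the array named in the design text carries, and the RNA input differs between design text and protocol.

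Of the probe sets, 34945 had 1 gene symbol, 932 several and 9160 none in the platform annotation. Levels before centring were estimated from the rounding step of the numbers, since the planned filter needs levels. On 8000 simulated probe sets the median absolute error was 0.646 log2 units, with 70.8% on the right side of the median level, the minimum for testing, and 90.0% on the right side of the 70th percentile, which bounds the bright set. The simulated levels were drawn from the estimates themselves with noise added, so errors on the real levels may be larger. A gene was represented by 1 of the probe sets with its highest estimated level, rounded to a whole log2 unit, ties settled by probe set type and name. Among bright probe sets these estimates may depend on the values tested. They were higher in Etv5 (11.57) and Lcn2 (11.73), which moved widely, than in the flatter Oaz2 (10.54). Phlda1 (8.61) and Kcnk5 (8.21), which also moved, had lower ones. The choice may therefore favour probe sets that moved, as in Cog1 (10.77, against 10.49 and 10.5). The trend of variance on level may share this limit.

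limma 3.58.1 in R 4.3.3 (lmFit, eBayes with trend) fitted time point and vector to the 8 arrays, so the spread comes from how far the cultures differ over 4 time points. Tests were two-sided with Benjamini-Hochberg adjustment over 30769 probe sets. On simulated data for G-CSF 2 h against IL-3 (30769 probe sets, 200 bright ones changed) limma recovered 69% of changes of 1 log2 unit, with 12 false among 150 calls, and 92.5% of changes of 2, with 5 false among 190. Figures used Python 3.11.15 and matplotlib 3.10.9. Promoters came from the RefSeq table of GRCm38.p6, in which Myc, Osm, Bhlhe40, Id1, Lrp12 and Cd69 were not matched.

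Genes were named by rule: the 12 bright genes with the largest difference each way, taken as the smaller of the 2 cultures' differences in the same direction, 5 dim genes each way, a fixed list, and up to 4 per gene list. Others are said to be chosen after their values were seen. The 29 gene lists hold 675 genes, 539 of them tested, and 85 belong to several lists. The members and lists were chosen with earlier results of these data known. The number of arrays limits the precision.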

Additional observations from a re-analysis of the deposited data

Results flagged for a closer look

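Socs3, the main feedback inhibitor of the G-CSF receptor, went in opposite directions in the 2 cultures between IL-3 and 2 h in the probe set that stands for it. It measured -0.81 in mock cells in IL-3 and -0.31 at 2 h, and -0.36 and -0.87 in ASXL1-MT cells. The ASXL1-MT difference minus the mock difference was -1.02, and limma's test of it gave an unadjusted p of 0.0272 and an adjusted p of 0.858 with 1 residual degree of freedom. The 2 other Socs3 probe sets, both bright, were higher in both cultures, so the opposite directions were seen in 1 of 3 probe sets.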

How the results depend on the processing

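The 15 calls became 0 without the variance trend and with the 4 arrays alone, and 0 to 0 (lowest to highest) without any single array, which leaves fewer residual degrees of freedom. The smallest adjusted p over these single-array fits was 0.111 to 0.207. They became 24 after a second quantile normalization and 40 with no replicate block, that is, with the vector left out of the model. Robust variances gave 20 and gene means, taken over a gene's probe sets, 16. The 911 tested probe sets at least 1 log2 unit apart in the same direction in both cultures became 2183 at a size of 0.58, 460 at 1.5, 3033 with no filter on dim probe sets, 27 among bright ones and 405 with gene means. Of the 6 list genes that passed, gene means made 11. Of the 12 named genes that passed, Osbpl9 missed the FDR with median-centred arrays, as did the probe set that stands for Ccng2. Osbpl9, Arid5b and Upk1b missed it with gene means, Upk1b with robust variances, and Cd69 without the block. Id1 and Bbc3 passed after quantile normalization, with robust variances, among bright probe sets alone, with gene means and without the block. Directions turned for genes near 0. Socs3 was 0.01 after quantile normalization and 0.15 with gene means, Ccnd2 0.05 and 0.01, and Gfi1b -0.00 after quantile normalization. Without 1 array, values ran from -0.46 to 0.45 for Socs3, -0.4 to 0.01 for Socs2, -0.17 to 0.2 for Gfi1b, -0.07 to 0.33 for Id2, -0.00 to 0.11 for Mcl1 and -0.13 to 0.03 for Csf3r. Gene means turned Maf to 0.03, Tmem30c to 0.26 and Anxa1 to -0.34, since their probe sets disagree. For the rest the cause was not tested. Of 132 list medians over 22 lists, 52 moved by more than the spread between cultures and 13 changed sign, each of the latter between -0.08 and 0.07. Signal near background limits the dim probe sets.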

Other observations

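Other gene groups showed small differences at 2 h, and none of their members passed the FDR in limma apart from Osm among the ligands and Cish among the inhibitors, both described above. Of 19 tested cytokine and chemokine genes 4 had an unadjusted p under 0.05 in the lower direction and 0 in the higher. The shares of all tested genes were 5.39% and 4.56%. Tnf was dim and lower by 1.24 in mock and 4.72 in ASXL1-MT cells, Ccl3 by 1.15 and 1.62, and Il6 by 0.86 and 0.72 (adjusted p = 0.571, 0.672 and 0.867, limma). The 16 bright SOCS, PIAS and phosphatase genes that damp JAK and STAT signalling had a median of -0.06. Interferon response genes had a median of 0.05 over 13 bright members, NF-kB factors and targets 0.10 over 12, p53 targets 0.15 over 17, ATF4 targets of the amino acid response -0.01 over 22, genes of glycolysis and hypoxia 0.01 over 24, and polyamine enzymes -0.05 over 8.

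Markers of other lineages gave no called gene. Few were bright: 5 of 20 for mast cells, basophils and eosinophils, 2 of 14 for erythroid cells, 3 of 10 for megakaryocytes, 2 of 20 for monocytes, macrophages and dendritic cells, and 2 of 14 for fibroblasts. Their bright medians at 2 h were -0.07, 0.00, 0.09, -0.15 and 0.15.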
